A study of Mus musculus with 48 samples.

Results

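The genes described here are the nuclear genes of oxidative phosphorylation, the mitochondrial process that makes most of the ATP of a resting cell. They were chosen by symbol: every gene whose name starts with Nduf, Uqcr or Atp5, and every gene named Cox4 to Cox8 or Sdha, Sdhb, Sdhc and Sdhd. The rule found 91 of the 20300 genes counted in whole-tumor cells and 89 of the 14363 genes counted in CD11b+ cells, the latter without Cox7b2 and Cox8b. By role they comprised 36 subunits of complex I, 8 Ndufaf assembly factors of complex I, 4 subunits of complex II, 8 of complex III, 19 of complex IV including Ndufa4 and Ndufa4l2, 15 of the ATP synthase (complex V), and Atp5s, a factor associated with it. The 13 protein-coding genes of mitochondrial DNA (mt- genes) are given next to them.

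Complexes I to IV sit in the inner mitochondrial membrane, pass electrons from NADH and succinate to oxygen and, except for complex II, pump protons, and complex V uses the proton gradient to make ATP. Mitochondrial DNA encodes some of the core subunits of complexes I, III, IV and V, while complex II and all other subunits, among them the flavin and iron-sulfur subunits of complex I, are encoded in the nucleus, so both genomes must supply parts in proportion. Several complex IV subunits exist as paralogs that differ by tissue, and macrophages and microglia are known to shift between respiration and glycolysis with their activation state.

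The study implanted cells of the mouse glioma line GL261 into the brains of C57BL/6 mice, male and 6 weeks of age, and sequenced single cells of the tumors with droplet libraries that count unique molecular identifiers (UMIs) at the 3′ ends of transcripts. The GL261 cells expressed a short hairpin RNA, which was a control sequence (shNC) or targeted Selp, the gene of P-selectin (shSELP), so the hairpin acts in the tumor cells while immune and vascular cells belong to an unmodified host. In the mix, CD11b+ cells, CD45+ cells without CD11b and the remaining cells were recombined in equal parts, and the labels date it to day 16. The CD11b+ libraries are dated to day 21.

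The mix had 2 shNC and 2 shSELP libraries, and the CD11b+ experiment had 1 library for each hairpin. Tissue of 3 brains was pooled for each group, and whether replicate libraries came from separate pools is not given in the sources used here, so a p-value measures the spread between libraries, which may be technical. Values of the mix are given in the order shNC replicate 1, shNC replicate 2, shSELP replicate 1 and shSELP replicate 2. The libraries of the mix held 22945972, 22626413, 17398121 and 25589350 UMIs, with medians of 9015, 7579, 5887 and 9388 UMIs per cell. The CD11b+ libraries held 12628177 UMIs under shNC and 11445676 under shSELP, with medians of 4032 and 3685 UMIs per cell. For 7 entries of the CD11b+ shSELP library 1 label field states the control hairpin, and the remaining fields of those entries were followed.

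Cells were assigned to classes by 8 marker genes each, none of them an oxidative phosphorylation gene. A cell joined a class when at least 3 markers of its list were detected and at least 2 more than of any other list. Of 8726 cells of the mix with at least 500 genes, 6956 were assigned and 1770 were not. The assignment was narrow for 1135 cells whose lead was exactly 2 markers. Tumor-like cells numbered 284, 186, 55 and 45 in the 4 libraries, macrophage-like cells 745, 703, 474 and 758, microglia-like cells 79, 99, 277 and 117, and T-like cells 451, 456, 417 and 466. Neutrophil-like cells numbered 7, 12, 25 and 19 and mural-like cells, the contractile cells around vessels, 4, 10, 79 and 28. The median cell held 5 of its own 8 markers in the tumor-like and macrophage-like classes and 7 in the microglia-like, T-like, mural-like and endothelial-like classes, and at most 1 marker of any other list. Barcodes found in more than 1 library numbered 5 in the mix and 3 in CD11b+ cells.

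Selp, the gene the hairpin targets, had 1, 1, 0 and 0 UMIs in the tumor-like cells of the 4 libraries. The counts of 0 allow up to 3.67 CPM (UMIs scaled to 1000000 UMIs of the same class and library) in shSELP replicate 1 and 5.28 CPM in shSELP replicate 2, counting error only. A knockdown was therefore not detectable at this depth.

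The members spanned a wide range of levels. Their mean over the 20 sums of 5 cell classes and 4 libraries ran from 0.0793 to 1045 CPM, with a median of 196 CPM. At least 100 CPM was reached by 65 members, and 3 had a mean under 1 CPM. The 5 highest means were those of Cox8a (1045 CPM) and Cox4i1 (850 CPM) of complex IV, Atp5e, the epsilon subunit of complex V (840 CPM), and Cox7c (787 CPM) and Cox6c (690 CPM) of complex IV. These levels are counts of 3′ ends on the CPM scale and are not scaled to transcript length, which a 3′ count does not depend on. The 10 members with the highest means gave 31.6% of the summed level.

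Tumor-like cells devoted 2.97%, 3.14%, 3.43% and 3.75% of their UMIs to the nuclear genes. Macrophage-like cells of the same libraries devoted 2.15%, 2.07%, 1.81% and 1.93%. Every tumor-like value lay above every macrophage-like value, with a log2 ratio of 0.46, 0.60, 0.92 and 0.96 within the libraries. T-like cells, at 2.93%, 2.66%, 2.49% and 2.56%, also lay above the macrophage-like cells in each library. These shares divide by total UMIs. Scaled in that way in the edgeR fit described below, the median gene was higher too, at log2 fold changes of 0.77 in tumor-like and 0.40 in T-like cells. The median member was at 0.73 and 0.35. Microglia-like cells, at 1.90%, 2.02%, 1.62% and 1.78%, lay below them in each library by log2 ratios of -0.18, -0.04, -0.16 and -0.12. Their mean of -0.13 was -0.059 with classes by cluster and -0.20 with cells thinned to 2000 UMIs. The microglia-like and macrophage-like ranges overlapped across libraries, though the difference had the same sign within every library. Neutrophil-like cells had 1.14%, 1.36%, 1.39% and 1.51%, from at most 25 cells per library, and lay below all other classes named here.

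The mt- genes ordered the classes differently. Microglia-like cells devoted 3.81%, 3.61%, 3.65% and 3.57% of their UMIs to mt- genes, and macrophage-like cells 2.75%, 2.19%, 2.10% and 1.94%. The microglia-like values were the higher ones in all 4 libraries, although their nuclear share was the lower one. NK-like cells had mt- shares of 3.10%, 3.16%, 3.87% and 3.66%, T-like cells 3.53%, 3.24%, 3.22% and 3.34%. Endothelial-like cells had 3.63%, 3.08%, 3.53% and 3.14%, so a high mt- share was not particular to microglia-like cells. Tumor-like cells had mt- shares of 2.46%, 2.30%, 2.03% and 1.81%, which overlapped those of macrophage-like cells. A ratio of nuclear UMIs to mt- UMIs does not depend on library scaling. It was 1.20, 1.36, 1.69 and 2.07 in tumor-like cells, 0.781, 0.947, 0.862 and 0.997 in macrophage-like cells, 0.830, 0.821, 0.771 and 0.767 in T-like cells and 0.499, 0.559, 0.443 and 0.498 in microglia-like cells. Among these 4 classes microglia-like cells had the lowest ratio and tumor-like cells the highest in each library, while T-like and macrophage-like cells overlapped. All cells deposited had at most 5.0% mt- counts, and the share of cells at 4% or more was 19.8%, 13.5%, 20.2% and 12.1%, so the mt- shares describe cells below that limit. Among microglia-like cells 41.8%, 43.4%, 39.7% and 33.3% were at 4% or more, beside 12.3%, 2.70%, 2.32% and 1.98% of macrophage-like cells, so the limit lay closer to the former.

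**Figure D1:**
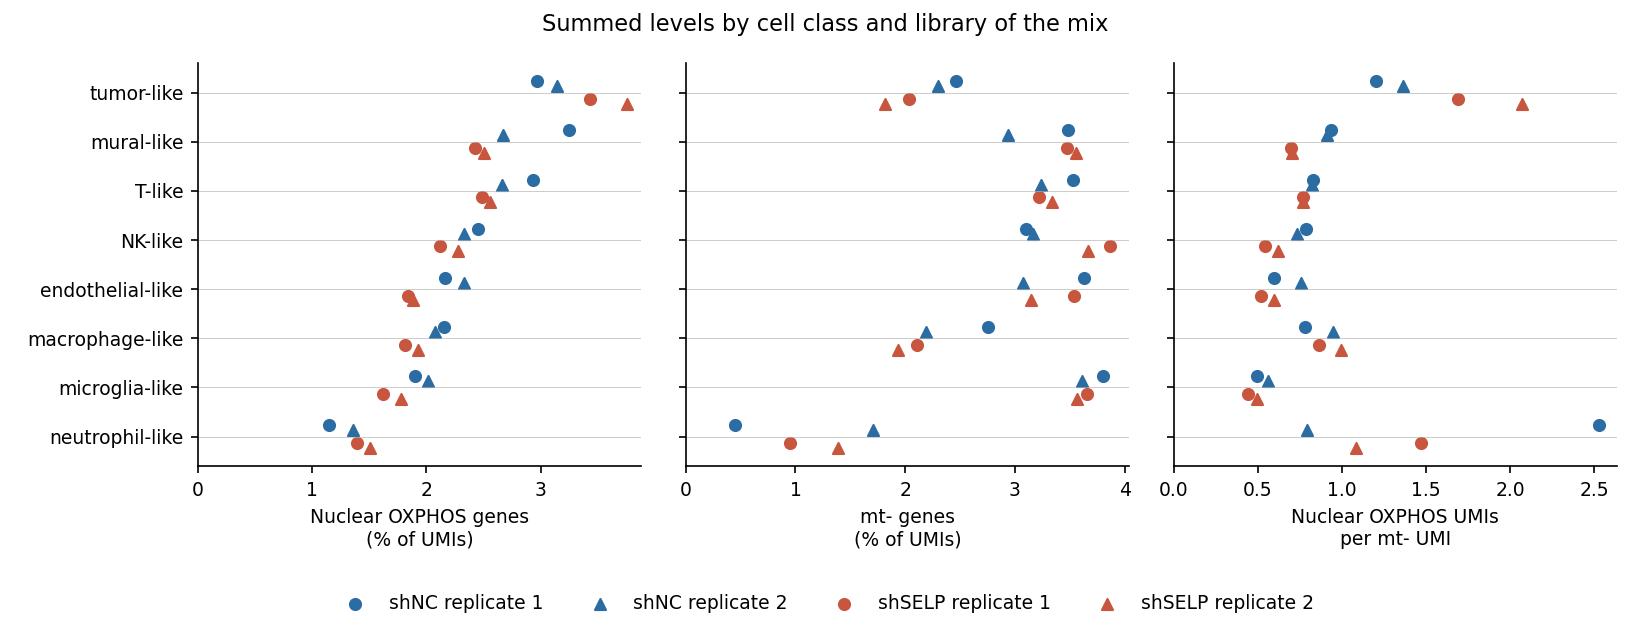
Share of UMIs from the nuclear oxidative phosphorylation genes, share from the mt- genes, and nuclear UMIs per mt- UMI, on the horizontal axes of 3 panels, for each cell class (vertical axis) and each library of the mix (points, by hairpin and replicate). Tumor-like cells lie between 2.97% and 3.75% for the nuclear genes and macrophage-like cells between 1.81% and 2.15%. Microglia-like cells have a higher mt- share than both, of at least 3.57%, and so do NK-like cells of the shSELP libraries (3.87% and 3.66%).

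Complexes I, III, IV and V took larger shares of UMIs in tumor-like cells, as the summed level did. The median gene was higher on the scale of total UMIs as well, at a log2 fold change of 0.77. Complex I took 0.866%, 0.956%, 1.03% and 1.05% of UMIs in tumor-like cells against 0.606%, 0.598%, 0.519% and 0.547% in macrophage-like cells. Complex III took 0.363%, 0.395%, 0.410% and 0.483% against 0.219%, 0.204%, 0.183% and 0.191%, and complex V took 0.805%, 0.864%, 0.949% and 1.06% against 0.618%, 0.591%, 0.509% and 0.544%. Complex IV took 0.858%, 0.840%, 0.954% and 1.05% against 0.651%, 0.623%, 0.550% and 0.593%. In each of these complexes the tumor-like values lay above the macrophage-like values without overlap. Complex II took 0.0405%, 0.0447%, 0.0517% and 0.0563% against 0.0425%, 0.0398%, 0.0380% and 0.0406%, higher in tumor-like cells in 3 of 4 libraries with overlapping ranges. Within complex IV, nuclear subunits gave 0.684, 0.761, 1.02 and 1.19 UMIs per mt- UMI of the same complex in tumor-like cells. The same ratio was 0.408, 0.498, 0.464 and 0.525 in macrophage-like cells and 0.277, 0.312, 0.277 and 0.298 in microglia-like cells. Within complex I it was 1.87, 2.14, 2.60 and 3.48 in tumor-like, 1.26, 1.53, 1.298 and 1.60 in macrophage-like and 0.742, 0.814, 0.538 and 0.625 in microglia-like cells. The order of these 3 classes was the same in both complexes, without overlap.

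Single genes were compared between classes in 1 fit of edgeR (quasi-likelihood F test, library as a block) over 11957 genes, of which 87 were members, with TMM scaling and a call at an adjusted p under 0.05. Each class was set against macrophage-like cells. TMM left the median gene within 0.03 of 0 in tumor-like, microglia-like and T-like cells but not in neutrophil-like cells (-0.84), whereas scaling by library size, an alternative chosen after seeing the data, divides by total UMIs alone. The TMM factors ran from 1.24 to 1.42 in tumor-like and from 0.738 to 0.795 in macrophage-like cells, and the median member moved between both scales by 0.80 for tumor-like, 0.16 for microglia-like, 0.38 for T-like and 0.46 for neutrophil-like cells on the log2 scale.

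In tumor-like cells 17 members were called higher, beside 36.1% of all genes, and 28 lower, beside 36.1% of all genes. The median member was at a log2 fold change of -0.07 and the median of all genes at 0.01. With library size scaling the direction of the count turned to 66 higher and 1 lower, where 59.4% of all genes were higher and 20.1% lower, and the medians were 0.73 and 0.77. DESeq2 called 68 higher and 2 lower, where 59.1% and 19.1% of all genes were. With cells thinned to 2000 UMIs 36 were higher and 4 lower, beside 36.8% and 26.2% of all genes, and the medians were 0.31 and 0.24. Of the 87 members, 43 were negative with TMM and positive with library size scaling. The count also turned when 1 control library was left out, to 21 higher and 19 lower without shNC replicate 1 (33.1% and 32.7% of all genes) and to 17 higher and 14 lower without shNC replicate 2 (34.04% and 31.1%). The count of called members thus depended on the setting. The median member lay below the median gene in every setting run except thinning to 2000 UMIs.

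**Figure D2:**
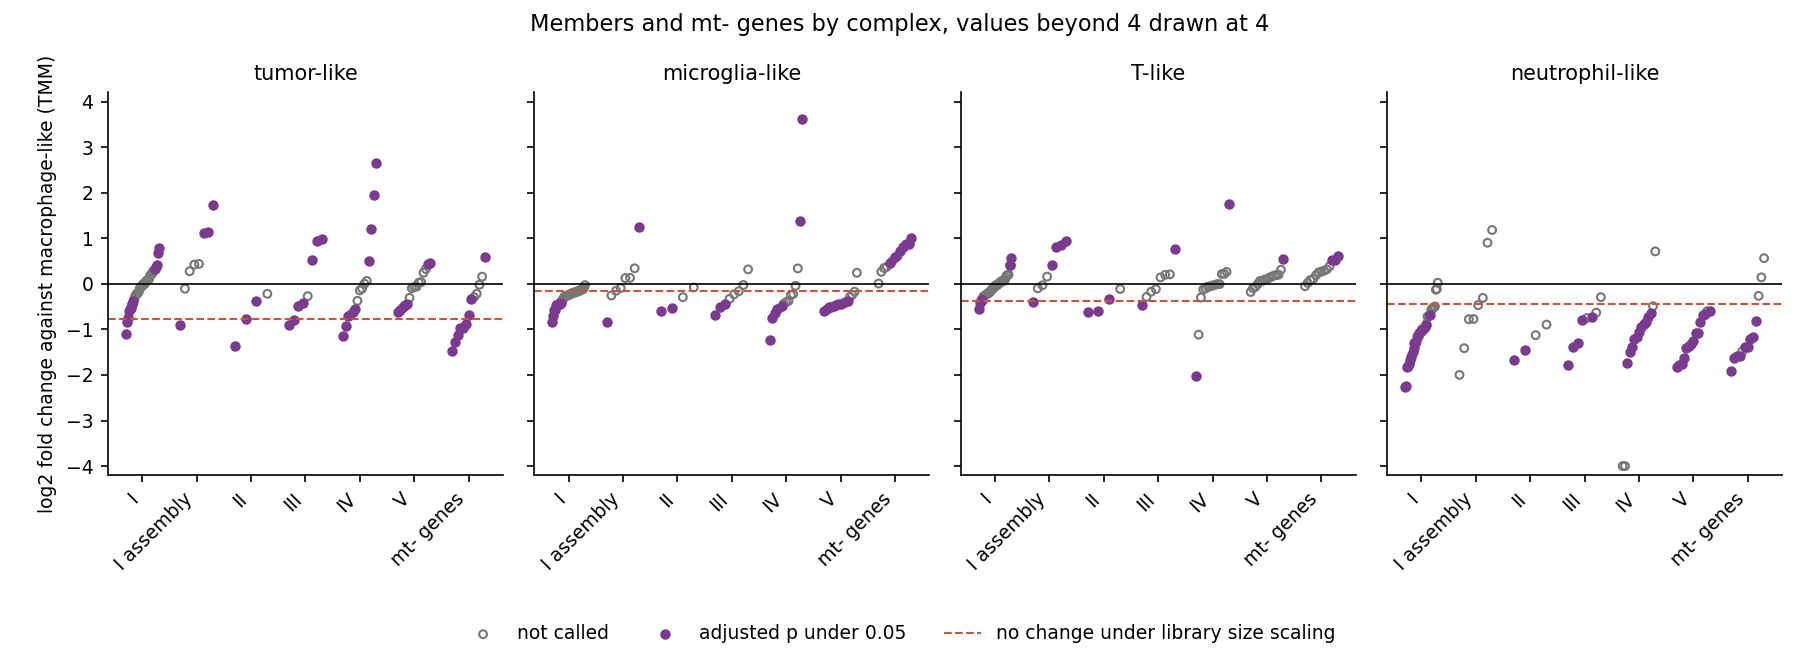
Log2 fold change against macrophage-like cells with TMM scaling (vertical axis) of each member and mt- gene (points, filled where called) by complex (horizontal axis), in a panel for each class. The dashed line marks no change with library size scaling, placed by the shift of the median of all genes between both scales. In tumor-like cells 17 members are called higher and 28 lower, a balance that turns to 66 higher and 1 lower with library size scaling.

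Some members were called higher in tumor-like cells on both scales. Ndufaf4, an assembly factor of complex I (chr4:24898083-24905001), had 73.6, 83.8, 73.3 and 98.6 CPM in tumor-like cells and 12.95, 17.0, 15.2 and 11.7 CPM in macrophage-like cells. The classes did not overlap, with a log2 fold change of 1.73 (SE 0.15, adjusted p 1.26e-11). In T-like cells Ndufaf4 had 34.2, 36.6, 39.7 and 31.0 CPM, between both classes and called above macrophage-like cells at 0.94. Ndufaf6, another assembly factor of complex I, had 24.8, 26.7, 42.8 and 35.2 CPM against 8.83, 9.35, 5.31 and 7.28 CPM. Its tumor-like values were higher in all 4 libraries, at 1.14 (SE 0.21, adjusted p 1.83e-05). The small subunits Uqcrq and Uqcr11 of complex III were chosen after their values were seen. Uqcrq had 1010, 1353, 1278 and 1554 CPM in tumor-like cells against 413, 414, 347 and 372 CPM, and Uqcr11 had 657, 747, 690 and 854 CPM against 250, 225, 184 and 204 CPM. Both were higher in tumor-like cells in each library, with log2 fold changes of 0.94 and 0.97.

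Complex II, which oxidizes succinate and belongs to the TCA cycle as well, differed between its subunits. Sdha, its flavoprotein (chr13:74322254-74350280), had 33.9, 40.0, 45.2 and 51.0 CPM in tumor-like cells and 64.3, 59.6, 59.4 and 58.0 CPM in macrophage-like cells. Its tumor-like values were lower in all 4 libraries, with a log2 fold change of -1.35 (SE 0.13, adjusted p 1.7e-10), and with library size scaling it was still lower at -0.58. Sdhb, the iron-sulfur subunit, had 169, 205, 250 and 259 CPM against 159, 159, 156 and 173 CPM, which was -0.38 with TMM and 0.42 with library size scaling. Sdhc, a membrane anchor, had 90.6, 105, 94.1 and 125 CPM against 74.3, 66.8, 65.7 and 65.2 CPM, which was -0.22 with TMM, not called, and 0.57 with library size scaling. The other anchor, Sdhd, was at -0.77 with TMM and 0.02 with library size scaling. Sdha was thus the single subunit of complex II below macrophage-like cells on both scales, though with cells thinned to 2000 UMIs it was at -0.41 and not called (adjusted p 0.129). Ndufv3, an accessory subunit of the NADH-binding arm of complex I, had 211, 164, 171 and 178 CPM against 276, 213, 194 and 210 CPM. It was called at -1.09 (SE 0.16, adjusted p 3.52e-07) with TMM, while with library size scaling it was at -0.30 and not called (adjusted p 0.0682).

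In microglia-like cells 3 members were called higher, beside 17.7% of all genes, and 31 lower, beside 17.5% of all genes. The median member was at -0.28 and the median of all genes at 0.00. With library size scaling 5 were higher and 12 lower, where 23.9% of all genes were higher and 12.2% lower, and DESeq2 called 6 and 13, where 23.5% and 10.6% of all genes were. With TMM all 36 subunits of complex I had a negative fold change, and with library size scaling 66 of all 87 members did. The count of lower members depended on single libraries, since 17 members in all were called without shSELP replicate 1 and 19 without shSELP replicate 2. Ndufb6, an accessory subunit of complex I, had 92.8, 93.5, 65.1 and 56.6 CPM against 133, 131, 106 and 119 CPM in macrophage-like cells, at -0.85 (SE 0.16, adjusted p 7.95e-05). Cox5a, which helps to regulate complex IV, had 376, 431, 281 and 328 CPM against 626, 550, 458 and 493 CPM, at -0.74 (adjusted p 0.00346). Ndufs4, a late-joining subunit of complex I, had 109, 92.9, 77.5 and 85.2 CPM against 133, 151, 114 and 130 CPM, at -0.71 (adjusted p 0.000123). For each of these 3 genes the microglia-like value was the lower one in all 4 libraries. Of the 13 mt- genes 7 were called higher in the same comparison and 0 lower by edgeR, with a median of 0.58, so with TMM the nuclear and the mitochondrial subunits of complex I lay on opposite sides of 0 for every called gene.

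In T-like cells 11 members were called higher, beside 30.3% of all genes, and 11 lower, beside 31.1% of all genes. With library size scaling the balance turned to 48 higher and 1 lower, where 46.1% of all genes were higher and 22.1% lower, and DESeq2 called 36 and 2, where 40.2% and 22.5% of all genes were. With cells thinned to 2000 UMIs 25 were higher and 2 lower, beside 37.5% and 24.5% of all genes. The called members fell to 9 higher and 4 lower without shNC replicate 2, beside 29.1% and 27.0% of all genes. They fell to 8 higher and 5 lower without shSELP replicate 2, beside 26.5% and 28.6% of all genes. Assembly factors of complex I were called higher in 4 of 8 cases and lower in 1 with TMM, and higher in 6 and lower in 0 with library size scaling by edgeR. Uqcrh, the hinge protein of complex III, had 888, 865, 900 and 824 CPM in T-like cells against 440, 363, 394 and 385 CPM in macrophage-like cells, without overlap, at 0.76 (SE 0.17, adjusted p 0.000256). Sdhc was at -0.62, Sdhd at -0.59 and Ndufc1, a small subunit of complex I, at -0.56 with TMM, while with library size scaling they were at -0.24, -0.21 and -0.18 and not called.

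In neutrophil-like cells 0 members were called higher by edgeR, beside 5.8% of all genes, and 53 lower, beside 13.7% of all genes, with a median member at -1.03 and a median gene at -0.84. With library size scaling 1 was higher and 19 lower, where 7.77% of all genes were higher and 6.63% lower, and DESeq2 called 1 and 27, where 19.2% and 7.30% of all genes were and the median gene was at 0.21. Without shSELP replicate 2, 0 were called higher by edgeR and 30 lower, beside 2.97% and 7.61% of all genes. The largest called decreases among members of at least 20 CPM were those of Ndufv2 (-2.27) and Ndufv1 (-2.23), which carry the iron-sulfur cluster and the flavin of the NADH-binding site of complex I, and of Ndufa9 (-1.83), which joins its arms. These sums rest on 63 cells, and the calls of Ndufv1 and Ndufa9 were lost with library size scaling and without shSELP replicate 1 (adjusted p 0.114 and 0.0955), that of Ndufv1 also without shSELP replicate 2 (adjusted p 0.295).

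Some paralogs of complex IV separated classes without overlap. Others did not, since Cox6a1 in microglia-like cells and Cox4i1 in tumor-like cells had ranges that overlapped those of macrophage-like cells. Ndufa4 (chr6:11900292-11907497), named for complex I and now placed with complex IV, had 545, 510, 679 and 600 CPM in tumor-like cells, 505, 404, 315 and 320 CPM in T-like cells and 239, 266, 251 and 241 CPM in microglia-like cells. Macrophage-like cells had 106, 101, 78.1 and 65.6 CPM, below every value of those classes. The log2 fold changes against macrophage-like cells were 1.95 (SE 0.17, adjusted p 1.4e-11) in tumor-like cells, 1.38 (SE 0.17, adjusted p 8.6e-08) in microglia-like cells and 1.76 (SE 0.17, adjusted p 1.27e-10) in T-like cells. Library size scaling gave 2.75, 1.53 and 2.14, in the same direction.

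The low Ndufa4 of macrophage-like cells came with a high level of its paralog AA467197 (chr2:122636986-122641191), also known as Nmes1, which lies outside the symbol rule and was chosen after its values were seen. AA467197 had 1490, 1897, 1912 and 1882 CPM in macrophage-like cells, 313, 449, 332 and 410 CPM in T-like cells, 211, 267, 138 and 93.0 CPM in microglia-like cells and 27.7, 32.9, 85.5 and 123 CPM in tumor-like cells. Macrophage-like cells were the highest of these classes in every library, and against them AA467197 had a log2 fold change of -5.77 in tumor-like, -2.65 in T-like and -3.50 in microglia-like cells. Its fold change for neutrophil-like cells was -1.68. It was detected in 90.4% of macrophage-like cells, at a median depth of 11541.5 UMIs, in 87.8% of dendritic-like cells at 6900 UMIs, in 63.5% of neutrophil-like cells at 2147 UMIs, in 52.8% of T-like cells at 6014 UMIs and in 4.13% of mural-like cells at 2798 UMIs. RNA shared between droplets was not estimated, so these shares of cells do not show which classes express the gene. Of the UMIs of Ndufa4, Ndufa4l2 and AA467197 together, AA467197 gave 93.3%, 94.9%, 96.1% and 96.6% in macrophage-like cells. Ndufa4 gave 95.1%, 93.4%, 88.4% and 83.0% of them in tumor-like cells and 53.1%, 49.9%, 64.6% and 72.2% in microglia-like cells. The main gene of the family therefore differed between tumor-like and macrophage-like cells in all 4 libraries.

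The third gene of the family was highest in mural-like cells, which were not part of the fit. Ndufa4l2 (chr10:127514967-127517154), a paralog known for its induction by hypoxia, had 553, 972, 1386 and 1121 CPM there and gave 94.7%, 93.5%, 92.9% and 84.2% of the family's UMIs. It was detected in 93.4% of 121 mural-like cells at a median depth of 2798 UMIs, in 25.8% of 31 fibroblast-like cells at 8080 UMIs, in 5.06% of endothelial-like cells at 3752 UMIs and in 0.0559% of T-like cells at 6014 UMIs. In fibroblast-like cells 27 of its 38 UMIs came from 1 cell. In tumor-like cells its highest value was 3.67 CPM and in macrophage-like cells 1.33 CPM. Cox4i2 (chr2:152754173-152765037), the oxygen-responsive isoform of the complex IV subunit Cox4, followed the same pattern with 276, 324, 375 and 316 CPM in mural-like cells. It was detected in 67.8% of mural-like cells and in 0.702% of tumor-like cells at a median depth of 16296.5 UMIs. The share was 3.32% of macrophage-like cells at 11541.5 UMIs and 2.27% of microglia-like cells at 9440 UMIs. The other isoform, Cox4i1, had 1229, 994, 750 and 872 CPM in mural-like cells, 909, 842, 893 and 991 CPM in tumor-like cells and 902, 852, 807 and 786 CPM in macrophage-like cells. Both isoforms were thus detected in mural-like cells, with Cox4i1 the higher one on the CPM scale in each library.

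Cox6a2 (chr7:128205435-128206387), the isoform of Cox6a known from heart and skeletal muscle, had 65.9, 114, 46.2 and 46.8 CPM in microglia-like cells and 4.95, 6.32, 2.76 and 4.77 CPM in macrophage-like cells. The microglia-like values were higher in every library, at a log2 fold change of 3.61 (SE 0.37, adjusted p 3.35e-09). It was detected in 26.7% of microglia-like cells at a median depth of 9440 UMIs and in 1.28% of T-like cells at 6014 UMIs. The share was 11.2% of tumor-like cells at 16296.5 UMIs and 4.78% of macrophage-like cells at 11541.5 UMIs. Of the cells assigned to no class, 8.47% held it at 6402 UMIs. The 5 microglia-like cells with the most held 78 of its 429 UMIs, so the level did not rest on these cells. In endothelial-like cells 13 of its 19 UMIs came from 1 cell. The gene lies within Itgad on the opposite strand. Itgad itself had at most 2 UMIs in any library of tumor-like, macrophage-like, microglia-like, T-like, neutrophil-like and mural-like cells, the classes in which it was counted. In tumor-like cells Cox6a2 had 6.65, 17.4, 46.4 and 31.7 CPM, called above macrophage-like cells at 1.19 (SE 0.44, adjusted p 0.0156). Its widespread partner Cox6a1 had 290, 283, 211 and 216 CPM in microglia-like cells and 279, 299, 234 and 246 CPM in macrophage-like cells, ranges that overlapped.

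Cox6b2, the isoform of Cox6b known from testis, had 41.0, 19.01, 19.5 and 24.6 CPM in tumor-like cells and 2.47, 2.67, 2.16 and 2.11 CPM in macrophage-like cells. The tumor-like values were higher in all 4 libraries, at 2.65 (SE 0.28, adjusted p 2.85e-09). It was detected in 26.5% of tumor-like cells at a median depth of 16296.5 UMIs, in 41.9% of 31 fibroblast-like cells at 8080 UMIs, in 9.92% of mural-like cells at 2798 UMIs and in 2.68% of T-like cells at 6014 UMIs. It was detected in 2.84% of macrophage-like and 2.74% of endothelial-like cells too, and the RNA that droplets share was not estimated. Its partner Cox6b1, the common isoform, had 607, 587, 630 and 722 CPM in tumor-like cells and 583, 536, 479 and 545 CPM in macrophage-like cells, which differed far less. Cox7a1, the muscle isoform of Cox7a, had 8.13, 7.65, 5.12 and 6.88 CPM in macrophage-like cells and at most 6.44 CPM in tumor-like cells, at -1.15 with TMM and at -0.41 and not called with library size scaling. Cox7a2, the common isoform, had 754, 701, 754 and 845 CPM in tumor-like and 513, 488, 432 and 457 CPM in macrophage-like cells, at -0.11 and not called with TMM and at 0.69 and called with library size scaling. Cox7a2l, a paralog studied as a factor of supercomplexes of complexes III and IV, had 374, 344, 404 and 465 CPM in microglia-like cells. It had 270, 274, 281 and 298 CPM in macrophage-like cells and 307, 258, 242 and 197 CPM in tumor-like cells. Its protein and the supercomplexes were not measured. Its microglia-like values were the highest of these classes in all 4 libraries, and in tumor-like cells it was at -0.92 with TMM and at -0.14 and not called with library size scaling. Cox7b, a small subunit of complex IV, had 905, 953, 974 and 1204 CPM in tumor-like cells and 464, 437, 349 and 388 CPM in macrophage-like cells. Its testis isoform Cox7b2 had 4 UMIs in all tumor-like cells and Cox8b, the muscle isoform of Cox8, had 1.

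**Figure D3:**
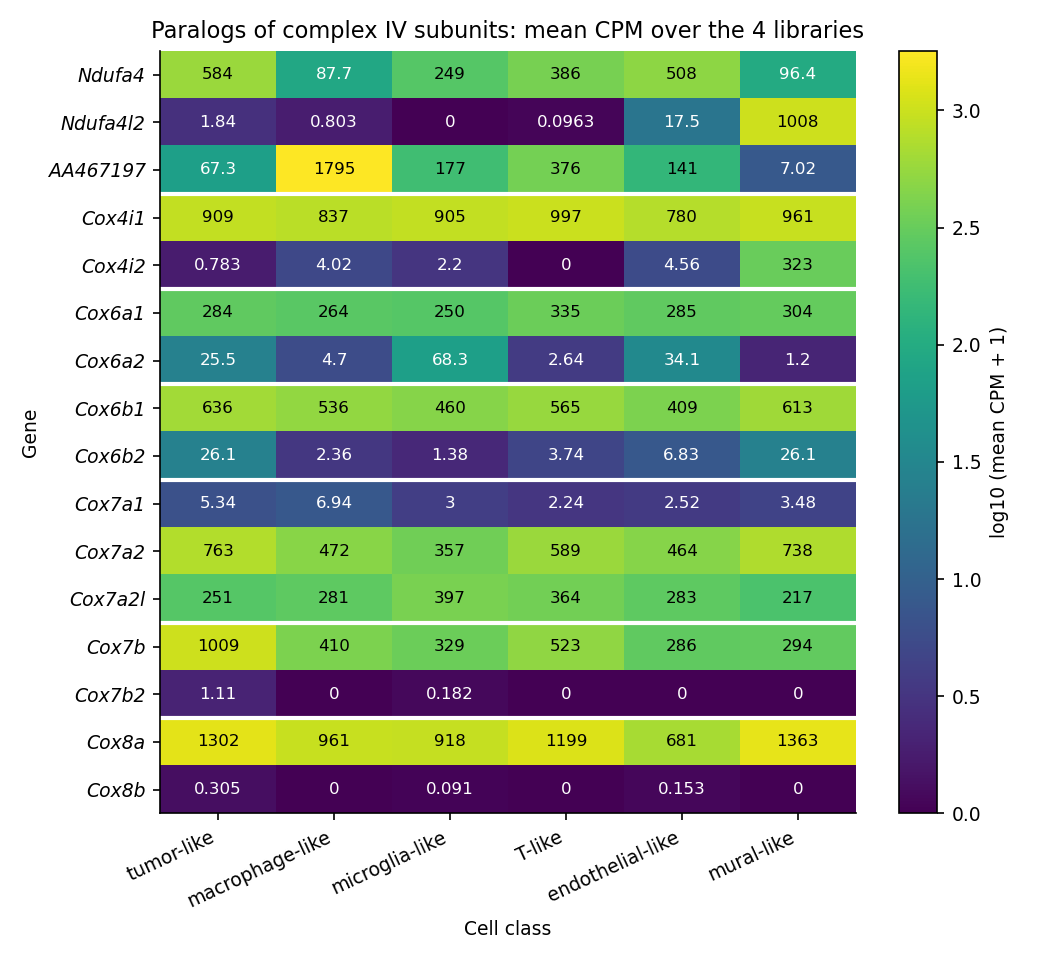
Mean CPM over the 4 libraries of the mix (number in each cell, color on a log10 scale of mean CPM plus 1) for paralogs of complex IV subunits (vertical axis, sets divided by white lines) in 6 cell classes (horizontal axis). Among these classes Ndufa4 is lowest and AA467197 highest in macrophage-like cells, Ndufa4l2 and Cox4i2 are highest in mural-like cells, and Cox6a2 is highest in microglia-like cells.

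The 3 genes for subunit c of complex V encode the same mature protein and differ in their import sequences. Atp5g1 had 537, 726, 762 and 831 CPM in tumor-like cells and 333, 327, 269 and 265 CPM in macrophage-like cells, at 0.45 with TMM and 1.26 with library size scaling. Atp5g2 had 978, 907, 976 and 746 CPM against 457, 415, 379 and 417 CPM, at 0.32 and 1.12. Atp5g3 had 257, 278, 338 and 438 CPM against 221, 198, 168 and 187 CPM, at -0.06 and 0.74. All 3 genes had higher CPM in tumor-like cells in each library, and Atp5g1 alone was called with TMM, while all 3 were called with library size scaling.

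Genes that work beside the complexes were counted in the same fit. Genes for the expression of mitochondrial DNA were called higher in tumor-like cells in 7 of 12 cases and lower in 0 by edgeR, the TCA cycle in 4 and 3 of 13, and assembly factors outside the symbol rule in 12 and 4 of 27, beside 36.1% of all genes in each direction. With library size scaling, chosen after seeing the data, the same lists had 11 and 0, 10 and 0, and 22 and 2, where 59.4% of all genes were higher and 20.1% lower. Tfam, which packages mitochondrial DNA and starts its transcription, had 47.7, 55.7, 56.2 and 54.6 CPM in tumor-like cells against 10.3, 7.89, 6.30 and 6.57 CPM in macrophage-like cells, at 1.95. Slc25a4, which exchanges ADP and ATP across the inner membrane, had 593, 602, 667 and 701 CPM against 101, 92.1, 68.7 and 81.4 CPM, at 2.11. Ucp2, a carrier of the inner membrane, showed the reverse order with 18.6, 17.7, 20.8 and 22.9 CPM against 878, 760, 658 and 872 CPM, at -6.12. Tfam, Slc25a4 and Ucp2 were named under none of the rules given below. Of 7 carriers and pores tested, 4 were called higher and 1 lower in tumor-like cells with library size scaling. Among them Slc25a5 had 400, 429, 457 and 447 CPM against 552, 542, 451 and 489 CPM. In microglia-like cells 2 of the 12 genes for mitochondrial DNA expression were called higher and 0 lower by edgeR. T-like cells had 5 higher and 2 lower of those 12. Of all genes 17.7% were higher and 17.5% lower in microglia-like and 30.3% and 31.1% in T-like cells. With library size scaling these counts were 2 and 0 beside 23.9% and 12.2% of all genes for microglia-like cells, and 6 and 1 beside 46.1% and 22.1% for T-like cells.

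Coordinates of the mouse build GRCm38 were found for 90 members, spread over 19 chromosomes. Across these chromosomes the median member and the median of all genes of the tumor-like comparison had a Pearson r of 0.478 (n = 19), or 0.534 over the 16 chromosomes with at least 3 members, as a description of points that share libraries. With TMM the median member and the median gene were at 0.43 and 0.46 on chromosome 10 and at 0.19 and 0.49 on chromosome 15, but at -0.06 and 0.54 on the X chromosome and at -0.69 and -0.14 on chromosome 9. GL261 is a tumor line whose chromosomes may differ in copy number, which was not tested.

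Promoters are shown because many members lay on the same side of 0 within a class, and a few transcription factors are known to bind many promoters of this gene group. RefSeq promoter sequences (GRCm38.p6, 300 bases each) were found for 76 members and for 27025 genes in all. The core of the NRF1 motif, GCGCATGCG on either strand, was found in 13.2% of member promoters and in 1.95% of all promoters. The YY1 core AAGATGGCG was found in 10.5% and 1.64%, and the ETS/GABP core CCGGAAGTG in 2.63% and 2.25%. No promoter of a member held more than 1 of these 3 motifs, and 20 members held any of them. The promoters below belong to genes named here, with the matches in capitals: Ndufaf4 (chr4:24897833-24898132, plus strand) and Uqcr11 (chr10:80406772-80407071, minus strand) with NRF1 matches, Ndufc1 (chr3:51408906-51409205, minus strand) and Ndufs4 (chr13:114388045-114388344, minus strand) with YY1 matches, and Uqcrh (chr4:116075021-116075320, minus strand) with an ETS/GABP match. In Ndufaf4 the matches on both strands overlap, offset by 1 base. A match describes letters in this window and does not show that a factor binds.
Ndufaf4: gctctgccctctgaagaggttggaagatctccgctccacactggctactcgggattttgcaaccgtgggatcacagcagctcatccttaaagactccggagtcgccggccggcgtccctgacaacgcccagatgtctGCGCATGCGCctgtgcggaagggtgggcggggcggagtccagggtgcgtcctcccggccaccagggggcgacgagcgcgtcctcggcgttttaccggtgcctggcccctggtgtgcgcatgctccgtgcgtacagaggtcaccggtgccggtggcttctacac
Uqcr11: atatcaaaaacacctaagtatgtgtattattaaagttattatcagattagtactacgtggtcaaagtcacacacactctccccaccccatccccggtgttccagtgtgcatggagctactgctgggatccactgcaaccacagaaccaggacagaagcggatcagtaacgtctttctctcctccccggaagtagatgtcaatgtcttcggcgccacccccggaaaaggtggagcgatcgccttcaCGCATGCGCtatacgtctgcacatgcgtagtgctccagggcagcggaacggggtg
Ndufc1: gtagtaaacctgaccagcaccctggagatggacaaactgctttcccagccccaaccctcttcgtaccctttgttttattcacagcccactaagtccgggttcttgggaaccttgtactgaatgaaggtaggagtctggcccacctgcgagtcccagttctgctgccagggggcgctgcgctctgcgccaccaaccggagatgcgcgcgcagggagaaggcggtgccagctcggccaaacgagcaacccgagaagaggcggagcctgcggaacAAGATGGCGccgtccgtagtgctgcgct
Ndufs4: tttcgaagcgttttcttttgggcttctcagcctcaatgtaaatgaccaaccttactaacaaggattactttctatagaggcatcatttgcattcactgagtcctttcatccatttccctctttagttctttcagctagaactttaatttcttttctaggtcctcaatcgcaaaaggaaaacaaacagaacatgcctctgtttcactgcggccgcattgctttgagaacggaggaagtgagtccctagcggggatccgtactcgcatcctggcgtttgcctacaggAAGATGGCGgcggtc
Uqcrh: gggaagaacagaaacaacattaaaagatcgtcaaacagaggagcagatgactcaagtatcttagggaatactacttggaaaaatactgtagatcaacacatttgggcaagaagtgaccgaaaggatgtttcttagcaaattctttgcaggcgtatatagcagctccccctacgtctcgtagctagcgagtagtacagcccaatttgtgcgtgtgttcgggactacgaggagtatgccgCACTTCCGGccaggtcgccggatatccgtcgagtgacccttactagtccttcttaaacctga

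The comparison of the hairpins asked whether the nuclear genes differed between cells from shSELP and shNC tumors. In macrophage-like cells the summed share was 2.15% and 2.07% under shNC and 1.81% and 1.93% under shSELP. The groups did not overlap, and shSELP was the lower one by a log2 difference of -0.17. In these cells the mt- share (-0.29) and the ribosomal share (-0.13) were lower under shSELP as well, without overlap, while nuclear UMIs per mt- UMI overlapped, so the decrease was not confined to the nuclear genes. In T-like cells (-0.15) and microglia-like cells (-0.20) shSELP was the lower group as well, and the T-like difference was -0.076 without shNC replicate 1. Unlike in macrophage-like cells, the mt- and ribosomal shares of the groups overlapped in both classes. Nuclear UMIs per mt- UMI were lower under shSELP without overlap, at -0.10 in T-like and -0.17 in microglia-like cells. Macrophage-like cells of shSELP replicate 1 also held 746 CPM of the neutrophil marker list, led by S100a8 at 363 CPM. The other libraries held 75.6, 74.3 and 106 CPM of that list in order, and its part in the lower nuclear share was not tested. Endothelial-like (-0.27) and NK-like cells (-0.12) had the lower nuclear shares under shSELP too. Endothelial-like cells numbered 21 and 34 under shNC and 346 and 73 under shSELP, and their ribosomal share was also lower (-0.45) without overlap. In NK-like cells the ribosomal share was lower (-0.14) and the mt- share higher (0.27) under shSELP, both without overlap. The nuclear shares of the groups overlapped in dendritic-like cells (-0.14). Tumor-like cells went the other way, from 2.97% and 3.14% under shNC to 3.43% and 3.75% under shSELP, a log2 difference of 0.23 without overlap. Neutrophil-like cells were also higher under shSELP, from 1.14% and 1.36% under shNC to 1.39% and 1.51%, with at most 25 cells per library. Their log2 difference of 0.21 was 0.072 with a lead of 3 markers, 0.097 without shNC replicate 1 and 0.34 without shNC replicate 2. With mt- and ribosomal UMIs left out of the total their groups overlapped, at 1.19% and 1.59% under shNC and 1.48% and 1.61% under shSELP. With 2 libraries against 2, an exact permutation test (two-sided) cannot give a p below 0.333, which each comparison without overlap reached. Whether tumor-like cells differ from the other classes in this was not tested for the summed share.

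The tumor-like difference was also taken with other denominators. In tumor-like cells the mt- share was lower under shSELP (-0.31) and ribosomal protein genes took 26.7%, 22.5%, 21.0% and 19.1% of UMIs. With mt- and ribosomal UMIs left out of the total, the nuclear share was 4.19%, 4.18%, 4.46% and 4.74%, a log2 difference of 0.14 that still separated the groups. Per cell, tumor-like cells held 456, 524, 511 and 474 nuclear UMIs, with no separation of the groups. Nuclear UMIs per mt- UMI were 1.20 and 1.36 under shNC and 1.69 and 2.07 under shSELP, a log2 difference of 0.55. The shSELP libraries had 55 and 45 tumor-like cells, whose own marker list summed to 1825 and 2038 CPM beside 3036 and 2240 CPM under shNC. A lead of exactly 2 markers was found in 48 of 284, 45 of 186, 26 of 55 and 21 of 45 tumor-like cells, so narrow assignments were more frequent under shSELP. With a lead of 3 the log2 difference of the summed share was 0.21. The part of this in the result was not tested further.

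**Figure D4:**
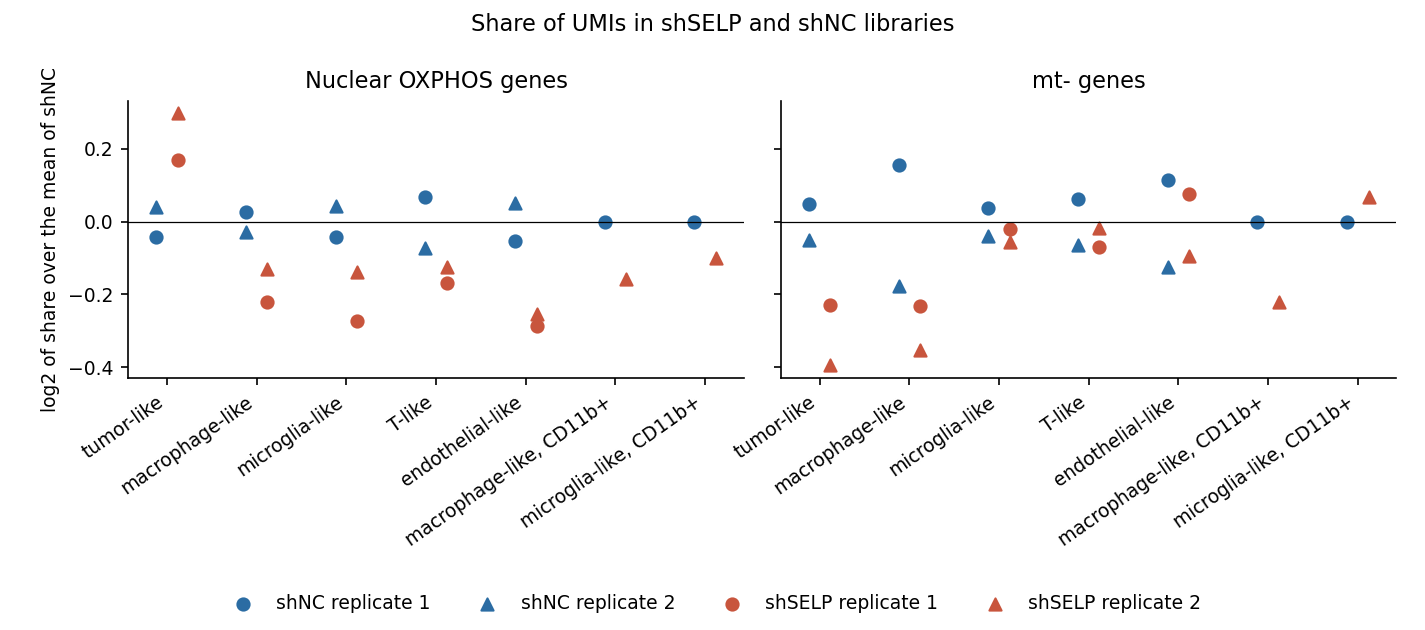
Share of UMIs from the nuclear genes (left) and the mt- genes (right) in each library (points, by hairpin and replicate), as log2 over the mean of the shNC libraries (vertical axis), for classes of the mix and of CD11b+ cells (horizontal axis). For the nuclear genes tumor-like cells lie higher under shSELP (3.43% and 3.75% of UMIs against 2.97% and 3.14%), and the other classes drawn lie lower.

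Fitted gene by gene, 0 members were called between the hairpins by edgeR in any of the 4 classes tested, and DESeq2 called 0 as well. In macrophage-like cells 0.113% of 10575 genes were called by edgeR, and 6 of 89 members had an unadjusted p under 0.05, beside 11.8% of all genes. By DESeq2 2 members had such a p, beside 585 of the 10575 genes. In tumor-like cells 0.28% of 10014 genes were called by edgeR, and 14 of 87 members had an unadjusted p under 0.05, beside 12.8% of all genes. By DESeq2 8 members had such a p, beside 545 of the 10014 genes. In microglia-like cells 0.38% of 8166 genes were called by edgeR, and 24 of 83 members had an unadjusted p under 0.05, beside 14.5% of all genes. By DESeq2 12 members had such a p, beside 419 of the 8166 genes. In T-like cells 0.0303% of 9910 genes were called by edgeR, and 5 of 85 members had an unadjusted p under 0.05, beside 9.36% of all genes. By DESeq2 2 members had such a p, beside 304 of the 9910 genes. The direction was more one-sided than these counts, with negative fold changes for 77 of 85 members in T-like, 77 of 83 in microglia-like and 74 of 89 in macrophage-like cells, where 48.5%, 49.4% and 50.5% of all genes were negative. In tumor-like cells 17 of 87 members were negative, where 51.0% of all genes were. The median members were at -0.16, -0.27 and -0.11 in these immune classes and at 0.22 in tumor-like cells, and the median of all genes lay within 0.01 of 0. All 15 subunits of complex V were negative in each of the 3 immune classes. Leaving out a library leaves 1 library in a group, which the fit assumes to vary like the other group. Under that assumption some members were called in microglia-like, tumor-like and T-like cells, in fits where calls over all genes rose as well. The median member then lay between -0.37 and -0.18 in microglia-like, 0.16 and 0.26 in tumor-like and -0.23 and -0.076 in T-like cells.

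Ndufa4 had the smallest p of the members in macrophage-like and T-like cells. In macrophage-like cells it had 106 and 101 CPM under shNC and 78.1 and 65.6 CPM under shSELP, a log2 fold change of -0.47 that separated the groups but was not called (adjusted p 0.184). In T-like cells it was at -0.50 and not called (adjusted p 0.279), and it was called without shNC replicate 2 under that assumption (adjusted p 0.0217). Ndufc1 in microglia-like cells had 209 and 227 CPM under shNC and 126 and 159 CPM under shSELP, at -0.68 and not called (adjusted p 0.0861), while in CD11b+ cells of that class it had 231 CPM under shNC and 261 CPM under shSELP, a ratio of 1.13 (0.945 to 1.36). Cox6a2 in microglia-like cells, with 65.9 and 114 CPM under shNC and 46.2 and 46.8 CPM under shSELP, was at -1.05 (adjusted p 0.0608), or at -0.59 without shNC replicate 2 and -0.37 after thinning. In tumor-like cells Ndufv1, the flavin subunit at the entry of electrons into complex I, had 40.1 and 53.2 CPM under shNC and 109 and 98.6 CPM under shSELP, at 1.11 (SE 0.22, adjusted p 0.0830). Ndufb8 of complex I had 282 and 310 CPM under shNC and 448 and 456 CPM under shSELP in tumor-like cells, at 0.56 (adjusted p 0.236). Ndufa12, an accessory subunit of complex I, had 181 and 187 CPM under shNC and 142 and 141 CPM under shSELP in macrophage-like cells, at -0.32 (adjusted p 0.258). The genes given here were chosen as those with the smallest p of the members. That each separated the groups of its class follows in large part from this choice. None passed the threshold over the 4 libraries. With 1 library left out, where the lone library of a group is assumed to vary like the other group, some passed it, namely Ndufv1 in tumor-like cells without shNC replicate 2 (adjusted p 0.00116), Ndufc1 in microglia-like cells without shNC replicate 1 (adjusted p 0.0371) or shSELP replicate 2 (adjusted p 0.000432), and Cox6a2 in microglia-like cells without shNC replicate 1 (adjusted p 2.95e-06), shSELP replicate 1 (adjusted p 0.00395) or shSELP replicate 2 (adjusted p 0.000177).

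The difference in response was tested itself in fits of both classes together with library as a block. Between microglia-like and macrophage-like cells 0 of 88 members were called by edgeR, beside 1.12% of all genes, and 8 had an unadjusted p under 0.05, beside 10.9%. DESeq2 called 0, with 2 at an unadjusted p under 0.05, beside 314 of 10452 genes. Between tumor-like and macrophage-like cells, a test chosen after seeing the data, 2 of 89 members were called by edgeR, beside 0.999% of all genes, and 22 had an unadjusted p under 0.05, beside 10.9%. DESeq2 called 0, with 18 at an unadjusted p under 0.05, beside 456 of 12309 genes. The calls rested on single libraries. With 1 library left out, which leaves 1 library in a group, the median member lay between 0.22 and 0.42, beside 0.31 in the fit of all libraries. The first was Ndufv1, at a difference of 1.05 (SE 0.26, adjusted p 0.0405), whose macrophage-like values were 48.2 and 47.9 CPM under shNC and 45.9 and 49.4 CPM under shSELP. The other was Cox6a2 at 2.18 (SE 0.49, adjusted p 0.0217), from 139 UMIs in tumor-like cells. With a lead of 3 markers neither was called (adjusted p 0.133 and 0.877), and the difference of Cox6a2 fell to 0.69. After thinning neither was called (adjusted p 0.850 and 0.510). Cycs, the electron carrier cytochrome c, and Idh3a of the TCA cycle were called in the same test at 0.91 and 1.29. Cycs and Idh3a were named under none of the rules given below, and their calls were not followed under the alternatives. In tumor-like cells Cycs had 167 and 227 CPM under shNC and 371 and 410 CPM under shSELP, and Idh3a had 49.8 and 59.6 CPM and 94.1 and 114 CPM. Both were higher in both shSELP libraries, as genes picked from those called.

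AA467197 was the one gene of the Ndufa4 family that was called between the hairpins within a class. In tumor-like cells it had 27.7 and 32.9 CPM under shNC and 85.5 and 123 CPM under shSELP, at 1.71 (adjusted p 0.0205). In microglia-like cells it had 211 and 267 CPM under shNC and 138 and 93.0 CPM under shSELP, at -1.10 (adjusted p 0.0264). The groups did not overlap in either class. The macrophage marker list summed to 464, 509, 514 and 502 CPM in tumor-like cells, of which Fn1 gave 441, 487, 498 and 495 CPM, and to 615, 599, 509 and 199 CPM in microglia-like cells, and its part in the result was not tested. The tumor-like call was lost without shSELP replicate 2 (adjusted p 0.0966), with a lead of 3 markers (adjusted p 0.304), with classes by cluster (adjusted p 0.128) and with cells thinned to 2000 UMIs (adjusted p 0.486). The microglia-like call was lost with a lead of 3 markers (adjusted p 0.0649) and with classes by cluster (adjusted p 0.326). The 5 cells with the most held 90 of 363 UMIs of the gene in tumor-like and 297 of 1105 in microglia-like cells.

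In CD11b+ cells, with 1 library per hairpin and no test, the nuclear genes took 2.27% of the UMIs of 1522 macrophage-like cells under shNC and 2.03% of 1838 such cells under shSELP. The ratio was 0.896 (95% exact interval 0.890 to 0.903, counting error only). Of 75 members with at least 500 UMIs, 63 had a ratio under 1, beside 44.4% of 3216 genes, with a median of 0.895 beside 1.03. In microglia-like cells the share was 2.20% under shNC and 2.05% under shSELP, a ratio of 0.933 (0.915 to 0.951), and 24 of 34 members had a ratio under 1, beside 58.6% of 500 genes. With a lead of 3 markers the log2 ratio of microglia-like cells went from -0.10 to -0.050. The summed share was lower under shSELP in both classes. The mt- genes had a ratio of 0.858 for macrophage-like cells and 1.05 for microglia-like cells, and ribosomal protein genes had 0.865 and 0.942, so the decrease was not confined to the nuclear genes.

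The genes of CD11b+ macrophage-like cells named next were chosen for their large ratios in either direction. Sdhd, an anchor of complex II, went from 67.8 CPM under shNC to 40.1 CPM under shSELP, a ratio of 0.591 (0.509 to 0.686), while Sdha of the same complex went from 58.5 to 76.5 CPM, a ratio of 1.31 (1.15 to 1.49). Cox5b, a zinc-binding subunit of complex IV, went from 360 to 251 CPM, a ratio of 0.697 (0.656 to 0.741), and Ndufs8, an iron-sulfur subunit of complex I, from 108 to 77.7 CPM, a ratio of 0.720 (0.644 to 0.805). Atp5a1, the alpha subunit of complex V, went from 236 to 279 CPM, a ratio of 1.18 (1.11 to 1.26). The intervals hold counting error only, so a spread between libraries is not part of them. Ndufa4 went from 129 to 102 CPM, a ratio of 0.792 (0.717 to 0.874), in the direction seen in macrophage-like cells of the mix. In microglia-like cells Cox5b went from 303 to 172 CPM, a ratio of 0.569 (0.467 to 0.691), and Atp5g2 from 510 to 371 CPM, a ratio of 0.727 (0.633 to 0.834). Cox6a2 went from 39.0 to 85.5 CPM, a ratio of 2.19 (1.49 to 3.25), opposite to its direction in microglia-like cells of the mix. That gene had 45 and 75 UMIs, under the minimum of 500. Of microglia-like members past the minimum, the largest ratios were those of Ndufv3 (1.17, 0.984 to 1.38), Atp5b (1.13, 0.976 to 1.31) and Atp5j (1.10, 0.970 to 1.24), whose intervals include 1.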

How the data were processed

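The 6 libraries were read from 2 tables of UMI counts per gene and cell, whole numbers that the authors deposited after alignment to mm10 with Cell Ranger. The study's methods give day 17 and another kit version than the labels, whose days are printed here. They also state a cap of 10% mt- counts, while the highest share in the tables was 5.0%. Cells with under 500 genes were left out (446 of 9172 in the mix, 189 of 5724 in CD11b+ cells). The numbers of cells in the tables differed from those the methods give before this step, for reasons not examined here. Doublets were neither called nor removed beyond the lead of 2 markers. Columns matching no library numbered 0.

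UMIs were summed per library and class and compared in R 4.3.3 by edgeR 4.0.16, whose quasi-likelihood F test followed TMM scaling and filterByExpr, and by DESeq2 1.42.0, with Benjamini-Hochberg adjustment over all genes tested. Classes with under 20 cells in a library got no test of the hairpins, which left out neutrophil-like cells. Ratios of CD11b+ libraries have exact binomial intervals, counting error only. Python 3.11.15, numpy 2.4.6, scipy 1.17.1, pandas 2.3.3, matplotlib 3.10.9, scikit-learn 1.9.0 and scanpy 1.11.5 did the rest.

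The members and lists were chosen with earlier results of these data known. Genes named whatever their values were the paralog sets of complexes IV and V and complex II. Others were the 5 highest means, the 3 largest called changes in each direction per class comparison at a mean of at least 20 CPM, per hairpin comparison the called members or the 3 with the smallest p, and per CD11b+ class the 3 largest ratios in each direction at 500 UMIs or more. Alternatives were DESeq2, leaving out each library, fitting without a filter on low counts, a replicate block, a lead of 3 markers, clusters in place of marker classes, thinning to 2000 UMIs per cell, no mt- cap and a total without mt- and ribosomal UMIs. Library size scaling, a fit without the neutrophil-like sums, the test of tumor-like against macrophage-like responses and the alternatives of both tests of a difference in response were chosen after seeing the data.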

Additional observations from a re-analysis of the deposited data

Results flagged for a closer look

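The summed nuclear share did not move in the same direction under shSELP in all classes. Both tumor-like libraries of shSELP lay above both of shNC, at a log2 difference of 0.23. Macrophage-like cells were at -0.17, microglia-like cells at -0.20 and T-like cells at -0.15, with both shSELP libraries below both of shNC. Neutrophil-like cells were higher at 0.21, from at most 25 cells per library, and fell to 0.072 with a lead of 3 markers. Their groups overlapped with mt- and ribosomal UMIs left out of the total. In dendritic-like cells (-0.14) the groups overlapped. The difference between classes was not tested for this sum.

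For single genes the difference in response between classes was tested. The response of Cox6a2 was higher in tumor-like than in macrophage-like cells by a log2 difference of 2.18 (edgeR, adjusted p 0.0217), and that of Ndufv1 by 1.05 (adjusted p 0.0405). Both genes had higher CPM in tumor-like cells of both shSELP libraries than of both shNC libraries. Neither passed the threshold in DESeq2, or without shNC replicate 1 or shSELP replicate 1, and Ndufv1 not without shSELP replicate 2. With a lead of 3 markers neither passed, where the Cox6a2 difference fell to 0.69, and neither passed after thinning. AA467197, chosen after its values were seen, differed between microglia-like and macrophage-like cells by -1.34 (adjusted p 0.00046), not past the threshold with classes by cluster (-0.71, adjusted p 0.0859), and between tumor-like and macrophage-like cells by 1.45 (adjusted p 0.00812), the latter not past the threshold without shSELP replicate 2 (adjusted p 0.217) or with cells thinned to 2000 UMIs (0.78, adjusted p 0.866). The causes of these differences were not tested.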

How the results depend on the processing

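The comparison of tumor-like with macrophage-like cells depended on scaling. From 45 called members, 17 of them higher, it went to 67 with library size scaling and 70 with DESeq2, nearly all higher, to 46 without a filter on low counts (25 higher) and to 40 with cells thinned to 2000 UMIs (36 higher). Leaving out a library gave 31 to 41. In microglia-like cells 34 calls became 22 after thinning, 17 with library size scaling, 19 with DESeq2, 53 without the neutrophil-like sums (chosen after seeing the data) and 17 to 31 with a library left out. Without those sums 16.4% of all genes were higher and 20.9% lower. In T-like cells 22 calls (11 higher) became 27 after thinning (25 higher), 49 with library size scaling, 38 with DESeq2 and 13 to 20 with a library left out. In neutrophil-like cells 53 calls became 32 after thinning, 20 with library size scaling, 28 with DESeq2 and 30 to 49 with a library left out. In each of these comparisons fewer genes in all were called as well when a library was left out.

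Between the hairpins, 0 called members by edgeR became 2 in tumor-like, 2 in T-like and 5 in microglia-like cells without the filter. Calls over all genes rose in the same fits. In tumor-like cells 250 genes were higher and 213 lower, against 24 and 4 with the filter. In T-like cells 141 were higher and 138 lower, against 3 and 0, and in microglia-like cells 195 and 165, against 10 and 21. In microglia-like cells a replicate block gave 6, though the replicate numbers do not pair libraries, and a lead of 3 markers gave 1. Of all genes 165 were higher and 152 lower with that block, and 53 and 43 with that lead. Leaving out a library gave 0 to 2 in tumor-like, 0 to 1 in T-like and 0 to 9 in microglia-like cells, where the lone library of a group is assumed to vary like the other group. The difference in response of tumor-like and macrophage-like cells, with 2 calls, had 0 with DESeq2, 0 with a lead of 3 and 0 after thinning. Its calls changed with the library left out. That of microglia-like and macrophage-like cells had 0 by edgeR and DESeq2 under the alternatives run. The alternatives of both differences were chosen after seeing the data. Macrophage-like cells had 0 by edgeR and DESeq2 under every alternative run.

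The summed share of tumor-like over macrophage-like cells, a log2 ratio of 0.74, ranged from 0.66 to 0.88. Microglia-like over macrophage-like cells went from -0.13 to -0.059 by clusters and -0.20 after thinning. T-like over macrophage-like cells went from 0.42 to 0.36 after thinning and 0.64 without mt- and ribosomal UMIs in the total. Under shSELP, tumor-like cells went from 0.23 to 0.32 by clusters and 0.14 with that total, and neutrophil-like cells from 0.21 to 0.072 with a lead of 3. Leaving out a library moved T-like cells from -0.15 to between -0.22 and -0.076 and neutrophil-like cells to between 0.097 and 0.34. In CD11b+ cells macrophage-like cells went from -0.16 to -0.17 with a lead of 3 and -0.21 with that total, and microglia-like cells from -0.10 to -0.050 with a lead of 3. The cause of these changes was not tested.

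For 45 pairs of a gene and a comparison, chosen by size or p of the change or for AA467197, 542 values were made under alternatives. Of these, 484 kept direction and side of the threshold, 40 lost the call, 18 gained it and 0 turned direction. Dropping the mt- cap of 10% could change nothing, as no cell passed 5.0%, so its values count as kept by construction. Of other genes given on both scales, these turned in tumor-like cells with library size scaling: Sdhb (-0.38 to 0.42), Sdhc (-0.22 to 0.57), Sdhd (-0.77 to 0.02), Atp5g3 (-0.06 to 0.74) and Cox7a2 (-0.11 to 0.69). The AA467197 call in tumor-like cells was lost with a lead of 3, clusters or thinning, and that in microglia-like cells with a lead of 3 or clusters. Hairpin counts in neutrophil-like cells were not run for want of cells, and no cluster held that class.

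Of the 4 classes tested between the hairpins, tumor-like cells had the lowest depth in a library, 568137 UMIs in shSELP replicate 2 with a floor of 5.28 CPM. Neutrophil-like, NK-like and endothelial-like cells, compared by summed share alone, had as few as 14165, 114530 and 113553 UMIs. With 2 libraries per group and pooled brains, animals cannot be told apart, and the CD11b+ ratios carry counting error alone.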
